A study of Homo sapiens with 6 samples.

Results

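Transforming growth factor-beta (TGF-beta) and activin signal through the same kind of relay. A dimeric ligand is held latent outside the cell or bound by an inhibitor, and once free it joins a type II and a type I receptor serine/threonine kinase. The type I receptor phosphorylates SMAD2 and SMAD3, which enter the nucleus with SMAD4 and act on target genes, and SMAD7 is made in response and turns the receptor off. In the endometrium and in endometriotic lesions the pathway is known for its part in fibrosis, matrix production and cell invasion.

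The 10 genes described here are 3 TGF-beta ligands (TGFB1, TGFB2, TGFB3), the activin subunit gene INHBA, the type I and type II TGF-beta receptors (TGFBR1, TGFBR2), SMAD2, SMAD3, SMAD4 and SMAD7. They were taken by name from a table of 16279 genes, and all 10 were among the 13311 genes with enough reads to test. The cells were 12Z, an immortalized line derived from a human endometriotic lesion and used as a model of endometriotic epithelium, so every library came from 1 line. There were 2 groups: Control (3 libraries, labelled NC), cultured without the recombinant protein, and rhChem157S (3 libraries), which received recombinant human chemerin ending at Ser157 at 10 ng/mL for 48 h, the dose and time being those of the study's methods. Chemerin is a secreted chemoattractant and adipokine that acts mainly through the receptor CMKLR1. The labels call the libraries of a group biological replicates, but no source says whether they came from separate passages or from wells of one plating, so p-values measure only the spread between these libraries.

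The libraries held 35430881 to 38341643 counted reads. Of the epithelial markers, KRT8 lay between 748 and 966 FPKM (fragments scaled to gene length and library size), while EPCAM was at most 0.807 and CDH1 at most 0.381 FPKM. Of the markers of other cell types, THY1 lay between 45.5 and 59.5 and CD68 between 70.0 and 134 FPKM, while PECAM1 was at most 0.0386 and PTPRC at most 0.0535 FPKM. The sum of the 7 epithelial markers ranged from 1596 to 1866 FPKM in Control and from 1760 to 1976 in rhChem157S, and that of the 8 other markers from 142 to 212 and from 139 to 182. The keratins KRT8, KRT18 (555 to 640 FPKM) and KRT19 (277 to 374 FPKM) were thus present, and KRT7 was at most 2.01 FPKM. The defining adhesion genes of epithelium, EPCAM and CDH1, were near 0, and the stromal marker PDGFRB lay between 5.52 and 21.2 FPKM. The sums are carried by KRT8, KRT18, KRT19, THY1 and CD68, and single markers differed in direction. By normalized CPM (counts scaled to library size), KRT8 (log2 fold change 0.29 ± 0.12) and KRT19 (0.27 ± 0.11) were higher in rhChem157S without overlap. In FPKM the groups of both keratins overlapped, and neither tool called them. EPCAM (log2 fold change -1.46 ± 0.51) and CDH1 (-1.14 ± 0.44) were lower in rhChem157S without overlap on both scales and were called by neither tool. By normalized CPM, 16.5% of all tested genes were higher and 16.0% lower without overlap. DESeq2, an alternative to the edgeR test used here, called MUC1 (-0.57 ± 0.17, DESeq2 adjusted p = 0.0395), the muscle marker DES (-2.09 ± 0.33, DESeq2 adjusted p = 1.75e-05) and the endothelial marker VWF (-1.97 ± 0.52, DESeq2 adjusted p = 0.00478) lower, where DES was at most 1.07 and VWF at most 0.508 FPKM.

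TGFB2 and TGFBR1 were the members whose rhChem157S libraries all lay below all Control libraries, and INHBA was the member that varied most between libraries. The 250 bases before their start sites are shown here because the results below turn on these 3 genes. All 10 members had a start in the RefSeq table (GRCh38.p14). TGFB2 and INHBA had 1 start each and TGFBR1 had 8, of which the first listed is shown. The windows are chr1:218345086-218345335 on the plus strand for TGFB2, chr9:99104863-99105112 on the plus strand for TGFBR1 and chr7:41703091-41703340 on the minus strand for INHBA, each written 5′ to 3′ in the direction of the gene. Capitals mark a match on either strand to TATAAA (the TATA box), CACGTG (an E-box), TGACGT (the core of a cAMP response element), GGGCGG (a GC box) or CAGACA (which holds a SMAD-binding core).
TGFB2: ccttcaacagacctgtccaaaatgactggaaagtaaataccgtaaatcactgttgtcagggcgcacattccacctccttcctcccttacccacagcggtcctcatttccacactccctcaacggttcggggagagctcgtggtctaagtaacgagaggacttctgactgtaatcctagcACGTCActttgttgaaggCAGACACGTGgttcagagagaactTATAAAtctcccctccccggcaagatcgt
TGFBR1: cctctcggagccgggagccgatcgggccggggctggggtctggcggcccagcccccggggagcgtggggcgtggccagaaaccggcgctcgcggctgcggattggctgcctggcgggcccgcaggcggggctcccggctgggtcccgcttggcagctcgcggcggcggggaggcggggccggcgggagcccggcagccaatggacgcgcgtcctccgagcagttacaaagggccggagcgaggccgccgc
INHBA: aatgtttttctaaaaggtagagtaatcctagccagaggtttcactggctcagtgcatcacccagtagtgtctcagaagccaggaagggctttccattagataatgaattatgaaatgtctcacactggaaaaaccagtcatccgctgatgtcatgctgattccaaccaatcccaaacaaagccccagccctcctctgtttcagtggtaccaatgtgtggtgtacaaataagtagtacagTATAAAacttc

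The TGFB2 window held a TATA box starting at position -29 from the start site, an E-box at -49, the CAGACA sequence at -53, which overlaps the E-box, and the response element core at -71. Among the same windows of all 35116 starts in the table, 10.7% held TATAAA, 6.34% CACGTG, 7.10% TGACGT, 42.6% GGGCGG and 13.6% CAGACA. The TGFBR1 window held none of the 5 sequences and was 79.6% G and C, against 50.4% for TGFB2 and 42.8% for INHBA. The INHBA window held the letters TATAAA at -11. Taking the first start of each member, TATAAA was found in 2 of the 10, CACGTG in 3, TGACGT in 1, GGGCGG in 4 and CAGACA in 1. The TGFB1 window differed from that of TGFB2 in holding 6 GC boxes and none of the other sequences. The motifs were chosen after the expression values had been seen, and a match describes the letters in the window only.

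In Control cells TGFB1 had the highest level of the 10 genes, at 80.9 FPKM on average, and INHBA the lowest, at 0.529. SMAD3 followed TGFB1 at 51.8 FPKM. The next levels were SMAD4 at 13.3, TGFBR1 at 11.6, TGFBR2 at 9.61, TGFB2 at 8.47 and SMAD7 at 5.63 FPKM, and SMAD2 at 1.95 and TGFB3 at 1.05 FPKM came last before INHBA. The ranges of the Control libraries overlapped between the neighbours SMAD4 and TGFBR1 and between TGFBR2 and TGFB2, and not between the other neighbours. The cells thus carried transcripts for a ligand, both receptors and the SMADs of the TGF-beta branch, with little of the activin subunit. The length behind each level was worked back from the deposited counts and FPKM, and SMAD2's low level rests on an implied length of 41648 bases, against 7263 for SMAD3. With exon lengths from GENCODE 29 in place of the implied ones TGFBR2 (13.6 FPKM) came before TGFBR1 (10.3), TGFB2 (9.78) and SMAD4 (8.86), so the order of these 4 depends on the gene models.

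**Figure D1:**
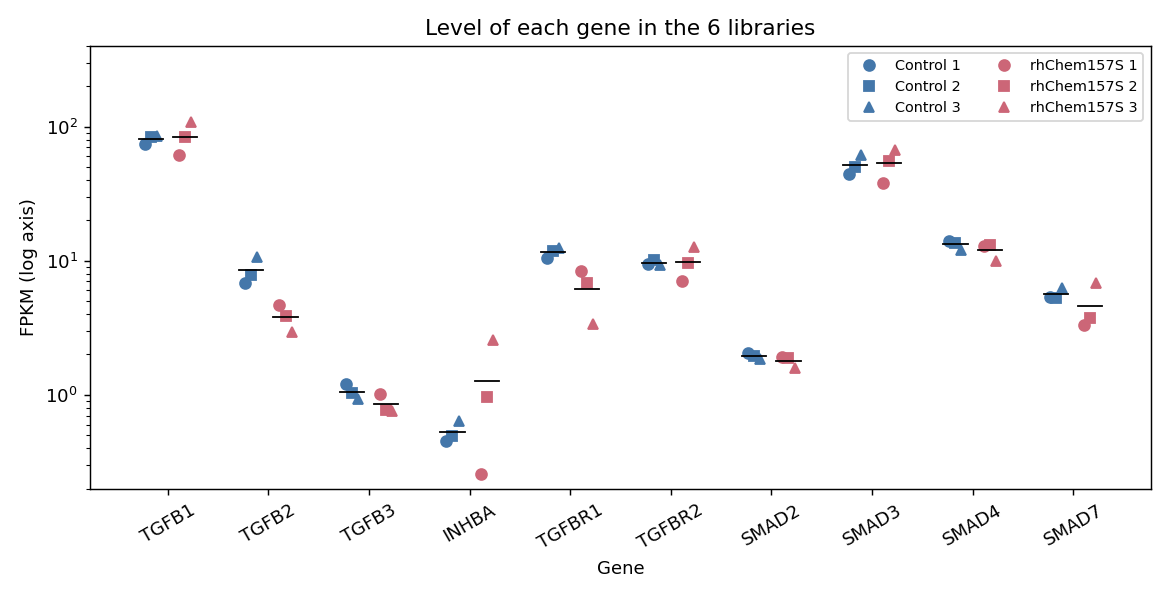
FPKM on a log axis of the 10 genes in the 6 libraries, with Control in blue, rhChem157S in red, a shape for each library and a black line at the group mean. For TGFB2 and TGFBR1 the 3 rhChem157S points lie below the 3 Control points, and for INHBA the rhChem157S points run from 0.257 to 2.55 FPKM.

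The comparison of rhChem157S with Control asked how the treatment altered transcript levels in 12Z cells. None of the 10 members passed the edgeR quasi-likelihood test at an adjusted p of 0.05, where 4 of 13311 genes (0.0301%) did. TGFB2 and TGFBR1 had an unadjusted p under 0.05, both lower in rhChem157S, so 2 of 10, where 22.8% of all tested genes passed that mark and 11.4% did so on the lower side. The same 2 members had groups that did not overlap on the scale of normalized CPM (counts scaled to library size), where 32.5% of all tested genes had such groups, 16.0% lower and 16.5% higher in rhChem157S. Taken in either direction, 2 of 10 members was thus no larger a share than that of all genes by either measure. By DESeq2, the alternative tool, TGFB2 and TGFBR1 were called lower with the treatment, where it called 9.38% of the 14066 genes to which it gave an adjusted p. It called 5.47% of those 14066 genes lower and 3.90% higher. The median log2 fold change was -0.01 over the members and 0.01 over all tested genes. In bulk cultures, fewer cells that express a gene and less RNA per cell cannot be told apart.

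Of the ligands, TGFB2 had all 3 rhChem157S libraries below the Control range, without passing the edgeR test, and TGFB1, the most abundant, had groups that overlapped. TGFB2 lies on chromosome 1 (GRCh38, GENCODE 29, 218346235 to 218444619, plus strand). In Control it was at 6.78, 7.89 and 10.7 FPKM, and in rhChem157S at 4.67, 3.87 and 2.94. All 3 rhChem157S libraries were below the lowest Control library. The means were 8.47 ± 2.04 and 3.83 ± 0.865 (SD, n = 3), and the fitted fold was 0.492. The log2 fold change was -1.02 ± 0.20 (SE), with an unadjusted p of 0.00115, an edgeR adjusted p of 0.0752 and a DESeq2 adjusted p of 2.08e-04. Of its exon bases, 1371 are shared with TGFB2-OT1 on the same strand. How the authors counted reads from these bases is not given in the sources used here, and TGFB2-OT1 has no row of its own in the table.

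TGFB1, which is on chromosome 19 (41301587 to 41353911, minus strand), encodes the isoform most tissues make. It was at 74.5, 83.2 and 85.2 FPKM in Control and at 61.2, 83.8 and 108 in rhChem157S. The treated libraries held both the lowest and the highest level of the 6, so the groups overlapped fully. The log2 fold change was 0.21 ± 0.22 (edgeR adjusted p = 0.592).

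TGFB3 (chromosome 14, 75958099 to 75982991, minus strand), the third isoform, was read 110 to 166 times per library. Its levels were 1.20, 1.02 and 0.924 FPKM in Control and 1.02, 0.776 and 0.753 in rhChem157S. The highest rhChem157S library lay within the Control range, and the log2 fold change was -0.18 ± 0.23 (edgeR adjusted p = 0.654).

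INHBA encodes the subunit that pairs with itself to form activin A. The gene (chromosome 7, 41667168 to 41705834, minus strand) was read 129, 148 and 188 times in Control and 80, 283 and 775 times in rhChem157S. In FPKM this was 0.449, 0.496 and 0.643 against 0.257, 0.961 and 2.55. The library rhChem157S 1 was thus below every Control library, and the other two were above every one. The fitted fold was 2.69, the log2 fold change was 1.43 ± 0.73 and the edgeR adjusted p was 0.281. Its highest rhChem157S library was 9.93 times its lowest, the widest such range of the 10 members, against 1.43 times in Control.

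The make-up of the TGF-beta ligand transcripts was also compared within each library, which does not depend on library scaling. TGFB2 made up 8.22, 8.56 and 11.1% of the summed FPKM of the 3 TGF-beta genes in Control. In rhChem157S its share was 6.99, 4.38 and 2.63%, so that no treated library reached the lowest Control share. The means were 9.29% ± 1.57 and 4.67% ± 2.19 (SD, n = 3), while TGFB1 made up 89.5% ± 1.37 and 94.3% ± 2.63. The log2 ratio of TGFB2 to TGFB1 was 1.17 lower on average (difference -1.17), with a two-sided exact permutation p of 0.1, the smallest that 3 against 3 can give, and 0.3 adjusted over 3 ratios.

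Of the receptors, TGFBR1 was lower in rhChem157S and TGFBR2 was not separated. TGFBR1, the type I receptor ALK5 (chromosome 9, 99104038 to 99154192, plus strand), was at 10.5, 11.8 and 12.4 FPKM in Control and at 8.32, 6.79 and 3.36 in rhChem157S. The treated libraries were all below the Control libraries but spread 2.48-fold among themselves, against 1.19-fold in Control. The means were 11.6 ± 0.997 and 6.16 ± 2.54 (SD, n = 3) and the fitted fold was 0.575. The log2 fold change was -0.80 ± 0.26, with an unadjusted p of 0.0183, an edgeR adjusted p of 0.152 and a DESeq2 adjusted p of 0.0350.

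TGFBR2, the type II receptor that binds ligand first (chromosome 3, 30606502 to 30694142, plus strand), was at 9.39, 10.1 and 9.37 FPKM in Control and at 7.06, 9.70 and 12.6 in rhChem157S. The Control libraries lay inside the range of the treated ones. The log2 fold change was 0.17 ± 0.22 (edgeR adjusted p = 0.658).

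The ratio of TGFBR1 to TGFBR2 was 1.11, 1.17 and 1.33 in Control and 1.18, 0.701 and 0.265 in rhChem157S. The library rhChem157S 1 lay within the Control range and the other treated libraries below it. The mean log2 difference was -0.99, with a two-sided exact permutation p of 0.3 (0.45 adjusted over the 3 ratios). It was -0.40 without rhChem157S 3 (exact p = 0.3) and -1.48 without rhChem157S 1 (exact p = 0.1). With 1 library left out, 0.1 is the smallest p that this permutation test can give.

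**Figure D2:**
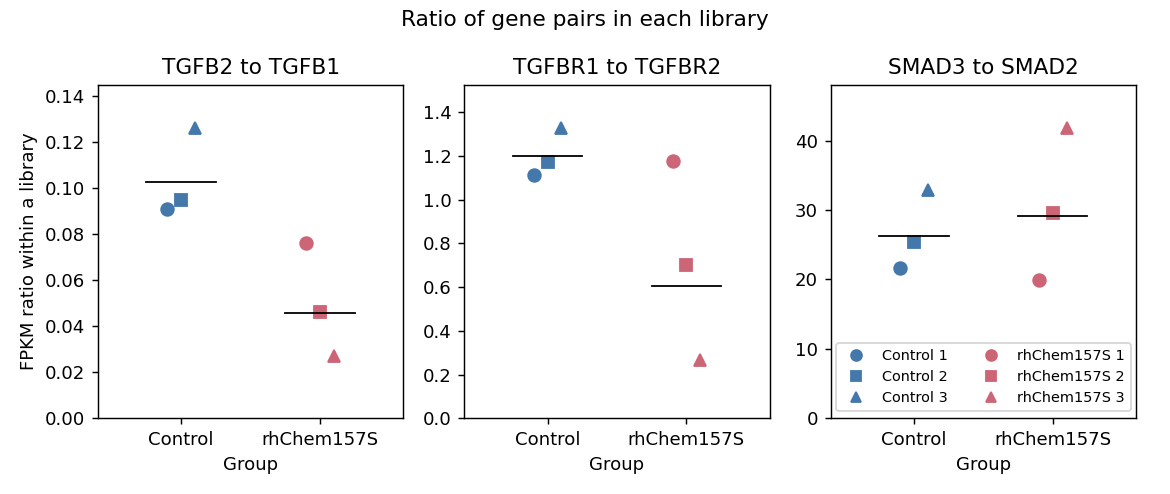
FPKM ratio of TGFB2 to TGFB1, TGFBR1 to TGFBR2 and SMAD3 to SMAD2 within each library (vertical axes from 0), with Control in blue, rhChem157S in red and a line at the geometric mean. The groups are apart in the first panel and overlap in the other panels.

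None of the 4 SMAD genes separated the groups. SMAD2 (chromosome 18, 47808957 to 47931146, minus strand) and SMAD4 (chromosome 18, 51028394 to 51085045, plus strand) were the steadiest of the 10. SMAD2, a receptor-activated SMAD, was at 2.05, 1.96 and 1.86 FPKM in Control and at 1.90, 1.89 and 1.59 in rhChem157S, from 2478 to 3036 reads. Its log2 fold change was 0.00 ± 0.08 (edgeR adjusted p = 0.992), the smallest standard error of the members. SMAD4, the partner that the receptor-activated SMADs share, was read 4398, 4375 and 3811 times in Control and 4332, 4151 and 3270 times in rhChem157S, with a log2 fold change of -0.02 ± 0.11 (edgeR adjusted p = 0.904). The unscaled reads and the FPKM of the library rhChem157S 3 were the lowest of the 6 for both genes. This library also had the lowest TMM factor, 0.898, which raises its values in the fit and not in the FPKM.

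SMAD3 (chromosome 15, 67063763 to 67195195, plus strand), the other receptor-activated SMAD, was at 44.3, 49.8 and 61.2 FPKM in Control and at 37.9, 55.8 and 66.4 in rhChem157S. The groups overlapped, and the log2 fold change was 0.19 ± 0.24 (edgeR adjusted p = 0.647). The ratio of SMAD3 to SMAD2 ran from 21.7 to 32.9 in Control and from 20.0 to 41.7 in rhChem157S (exact permutation p = 0.8), where its absolute size depends on the SMAD2 length given above.

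SMAD7, the inhibitory SMAD (chromosome 18, 48919853 to 48952052, minus strand), was at 5.33, 5.24 and 6.31 FPKM in Control and at 3.31, 3.71 and 6.86 in rhChem157S. The libraries rhChem157S 1 and rhChem157S 2 were below all Control libraries and rhChem157S 3 was above them. The log2 fold change was -0.13 ± 0.31 (edgeR adjusted p = 0.818). As with TGFB2, some exon bases of 4 other members are shared with a neighbouring gene in GENCODE 29, namely 215 of TGFB1 with HNRNPUL1, 163 of TGFB3 with TGFB3-AS1 and 182 of SMAD3 with AC087482.1 on the opposite strand, and 967 of SMAD4 with AC091551.1 on the same strand.

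The treated libraries thus stood apart from each other. Levels were taken as log2 CPM relative to the Control mean. The median of the 10 members was -0.08, -0.02 and 0.09 in Control and -0.37, 0.07 and 0.22 in rhChem157S. The median of all tested genes was between -0.0026 and 0.0068 in every library. TMM scaling holds that median near 0, so it gives no measure of how far a set of 10 genes varies. TGFB1, INHBA, TGFBR2, SMAD3 and SMAD7 were lowest of the 6 libraries in rhChem157S 1 and highest in rhChem157S 3. This was 5 of 10 members, where 7.26% of all tested genes had that order, and the order was noticed after the values were seen. TGFB2 and TGFBR1 did not have it: both were lowest in rhChem157S 3. The opposite order, highest in rhChem157S 1 and lowest in rhChem157S 3, was found in 0 of the 10 members and in 5.64% of all tested genes. The range of the 3 libraries was wider in rhChem157S than in Control in 7 of 10 members and in 72.1% of all tested genes. The median log2 range of the members was 0.26 in Control and 0.97 in rhChem157S. Over all tested genes it was 0.23 and 0.40. In Control the median level of the members also rose from library 1 to library 3. TGFB1, INHBA and SMAD3 rose in that order in both groups, while TGFBR2 and SMAD7 did not in Control. TGFB2 and TGFBR1 rose in Control and fell in rhChem157S. What set rhChem157S 1 and rhChem157S 3 apart, and whether it was shared with the Control libraries of the same number, was not tested.

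**Figure D3:**
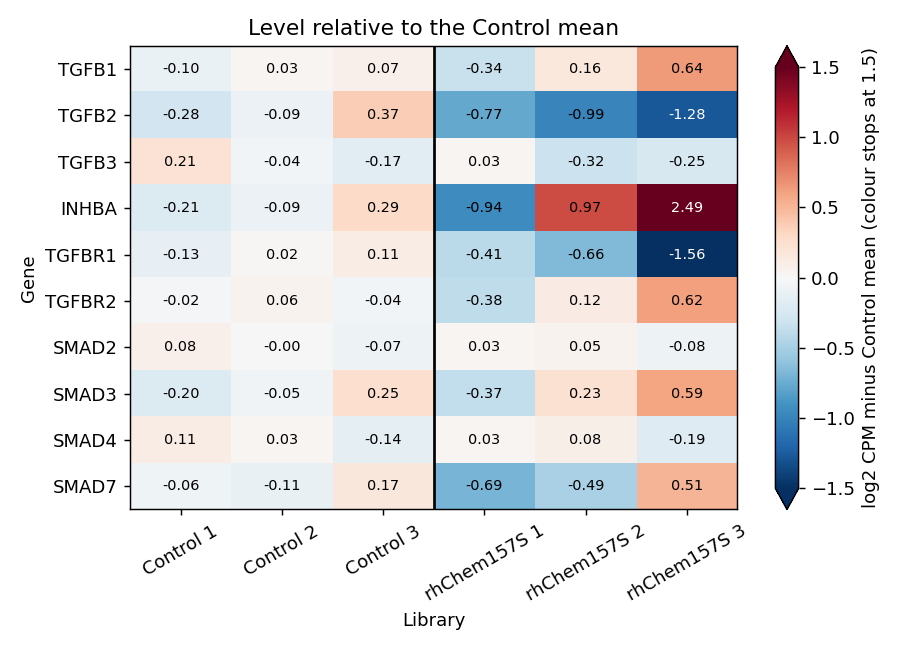
Log2 CPM of the 10 genes in each library minus the Control mean of the same gene, written in each cell and shown in colour (red higher, blue lower, colour ending at 1.5). INHBA runs from -0.94 in rhChem157S 1 to 2.49 in rhChem157S 3, and TGFB2 and TGFBR1 are below 0 in all 3 treated libraries.

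Leaving out 1 treated library changed which members were called. Without rhChem157S 1, INHBA (log2 fold change 1.91 ± 0.42, edgeR adjusted p = 0.0455) and TGFB2 (-1.16 ± 0.21, edgeR adjusted p = 0.0373) were called, 2 of 10 where 844 of all genes (6.24%) were. In that fit 6 members had an unadjusted p under 0.05, where 30.1% of all genes had, and 6 had groups that did not overlap, where 49.8% had. TGFBR1 was at -1.05 ± 0.25 (edgeR adjusted p = 0.0536). Without rhChem157S 3, TGFBR1 was called (-0.53 ± 0.11, edgeR adjusted p = 0.0498), 1 of 10 where 415 genes (3.07%) were, and TGFB2 was at -0.91 ± 0.19 (edgeR adjusted p = 0.0559). SMAD7 was then at -0.60 ± 0.13 (edgeR adjusted p = 0.0609), and INHBA was at 0.29 ± 0.50. TGFB2 and TGFBR1 kept their negative sign without any 1 library, from -1.16 to -0.82 and from -1.05 to -0.53 on the log2 scale, whereas TGFB1, TGFBR2 and SMAD3 turned negative without rhChem157S 3.

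**Figure D4:**
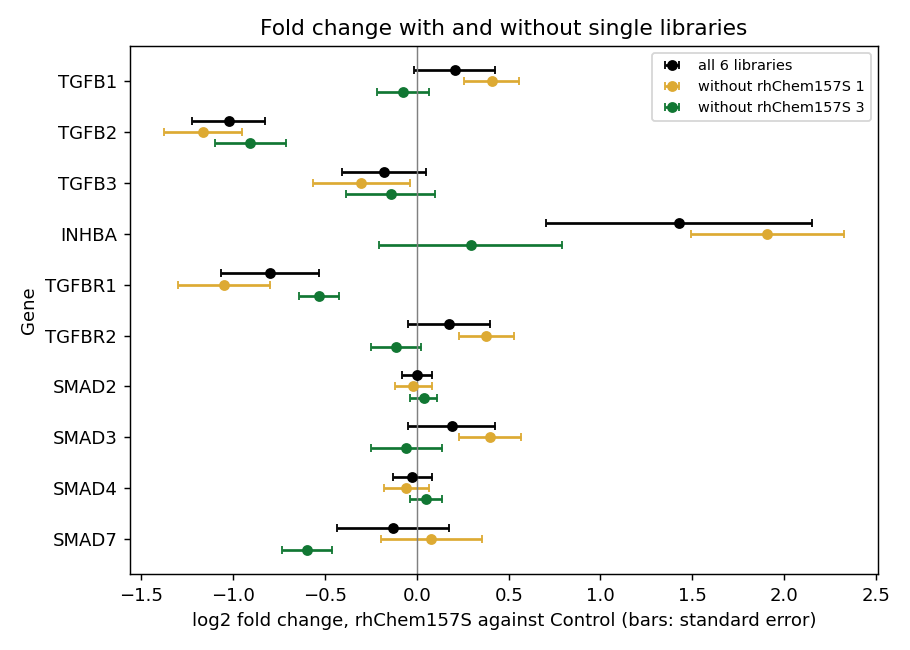
Log2 fold change of each gene, rhChem157S against Control, with its standard error, from all 6 libraries (black), without rhChem157S 1 (yellow) and without rhChem157S 3 (green). TGFB2 and TGFBR1 lie left of 0 in all 3 fits, and INHBA moves from 1.91 to 0.29.

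The 5 genes whose levels over the 6 libraries were most like those of TGFB2, by the root mean square difference of centred log2 CPM, were ADAMTS7 (0.0689), PPM1E (0.0784), FAM124A (0.0860), CDH11 (0.0953) and TCEAL7 (0.108). ADAMTS7 is a secreted metalloproteinase and CDH11 is the cadherin of mesenchymal cells. CDH11 was at 6.80, 6.96 and 10.3 FPKM in Control and at 5.03, 3.54 and 2.96 in rhChem157S, with the same order of libraries as TGFB2. The 5 genes were picked for their likeness in these 6 libraries, so the choice itself favours a shared order and no link is drawn from it.

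The rest of the pathway was taken as 7 lists of ligands, latency and activation proteins, receptors, other SMADs and partners, inhibitors, TGF-beta targets and BMP targets. Of their 91 tested genes, 0 were called by edgeR, 25 (27.5%) had an unadjusted p under 0.05, against 22.8% of all tested genes, and 13 (14.3%) were called by DESeq2, against 9.38%. Of the 13, 4 were higher and 9 lower in rhChem157S. The groups did not overlap in 27 (29.7%), 10 higher and 17 lower, against 32.5% of all tested genes, and the median log2 fold change was 0.04.

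Among 10 other ligands with enough reads, 2 were called lower by DESeq2, against 5.47% of all genes, and the list's median log2 fold change was -0.47. INHBE, which encodes another activin subunit, was counted 40, 20 and 60 times in Control and 5, 5 and 3 times in rhChem157S. It was thus near the floor of detection in every treated library (log2 fold change -3.10 ± 0.59, edgeR adjusted p = 0.0752, DESeq2 adjusted p = 0.00112). The size of this difference depends on how low values are treated, since limma gave -0.46 on log2(FPKM + 1) and -1.82 on log2(FPKM + 0.1). GDF15, a stress-induced cytokine, was at 43.2, 83.7 and 79.2 FPKM in Control and at 20.7, 33.1 and 40.5 in rhChem157S (log2 fold change -0.98 ± 0.33, edgeR adjusted p = 0.154, DESeq2 adjusted p = 0.0251), with groups that overlapped on the scale of normalized CPM.

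Among 11 latency and activation genes, LTBP1 was lower and ITGAV higher by DESeq2, which called 5.47% of all genes lower and 3.90% higher, and the median was 0.07. LTBP1, which tethers latent TGF-beta to the matrix, was at 5.63, 5.30 and 6.04 FPKM in Control and at 3.13, 2.54 and 3.14 in rhChem157S, with no overlap (log2 fold change -0.81 ± 0.13, edgeR adjusted p = 0.0707, DESeq2 adjusted p = 2.68e-05). ITGAV, the integrin chain that helps to release TGF-beta from its latent form, had a log2 fold change of 0.33 ± 0.08 (edgeR adjusted p = 0.108, DESeq2 adjusted p = 0.0262).

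None of the 12 other receptors was called by either tool (median -0.06). The 3 with the smallest p were ACVR1B, the activin type I receptor (log2 fold change 0.28 ± 0.12), TGFBR3, the coreceptor betaglycan (-0.32 ± 0.18), and the BMP receptor BMPR1A (-0.14 ± 0.09), with edgeR adjusted p of 0.209, 0.310 and 0.385. Of 8 other SMADs and partners (median 0.04), SMAD6, the inhibitory SMAD of the BMP branch, was called lower by DESeq2, as were 5.47% of all genes. It was at 5.58, 5.21 and 6.32 FPKM in Control and at 4.37, 3.06 and 3.29 in rhChem157S (log2 fold change -0.55 ± 0.14, edgeR adjusted p = 0.112, DESeq2 adjusted p = 0.0202).

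Of 20 inhibitors, 3 were called by DESeq2, all higher in rhChem157S, where it called 3.90% of all genes higher. The groups did not overlap in 4 of the 20 genes that were higher and in 4 that were lower. Over all tested genes these shares were 16.5% higher and 16.0% lower. The list median was 0.22. FST encodes follistatin, which binds and neutralizes activin. It was at 0.725, 0.721 and 0.868 FPKM in Control and at 1.19, 1.44 and 2.58 in rhChem157S, so that every treated library was higher (log2 fold change 1.32 ± 0.35, edgeR adjusted p = 0.116, DESeq2 adjusted p = 0.00754). CD109, a membrane coreceptor that dampens TGF-beta signalling, was at 12.6, 12.5 and 9.64 FPKM against 18.5, 19.6 and 15.7 (log2 fold change 0.76 ± 0.12, edgeR adjusted p = 0.0707, DESeq2 adjusted p = 3.50e-05). FKBP1A, which holds the type I receptor inactive, was at 170, 163 and 169 FPKM against 201, 239 and 271 (log2 fold change 0.64 ± 0.15, edgeR adjusted p = 0.0952, DESeq2 adjusted p = 0.00358). No treated library of these genes lay within the Control range. The 4 inhibitors that were lower without overlap were BAMBI, a decoy receptor (log2 fold change -0.52 ± 0.16), FSTL3, TGIF2, a corepressor (-0.33 ± 0.15), and CHRD, the BMP antagonist chordin (-1.12 ± 0.42), called by neither tool and named after their values were seen. FSTL3, a relative of follistatin that also binds activin, was more abundant than FST, at 56.3, 54.3 and 55.2 FPKM in Control and 37.4, 34.7 and 42.6 in rhChem157S (-0.40 ± 0.12, edgeR adjusted p = 0.133, DESeq2 adjusted p = 0.0537).

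Of 24 TGF-beta targets, 3 were called by DESeq2, all lower, where it called 5.47% of all genes lower, and the list median was 0.08. CDKN1A, a cyclin-dependent kinase inhibitor, was at 183, 346 and 204 FPKM in Control and at 96.0, 109 and 98.4 in rhChem157S (log2 fold change -1.14 ± 0.23, edgeR adjusted p = 0.0774, DESeq2 adjusted p = 8.96e-05). CDKN2B, a second inhibitor of the same kind, was at 15.8, 15.2 and 11.1 against 8.75, 5.30 and 4.40 FPKM (-1.07 ± 0.24, edgeR adjusted p = 0.0948, DESeq2 adjusted p = 9.56e-04). ACTA2, smooth muscle actin, was at 34.7, 42.0 and 34.8 against 23.5, 16.5 and 11.4 FPKM (-0.999 ± 0.21, edgeR adjusted p = 0.0880, DESeq2 adjusted p = 6.44e-04). The muscle marker DES was also lower in every treated library, and its part in the ACTA2 values was not tested. All 3 targets were lower in every treated library than in any Control library, while the remaining targets were called by neither tool. Of these, the matrix genes TNC (log2 fold change 0.83 ± 0.33) and POSTN (0.71 ± 0.26) had an unadjusted p under 0.05 with higher values in rhChem157S and overlapping groups (edgeR adjusted p = 0.199 and 0.172), and were named after their values were seen.

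Of 6 BMP targets, ID2 and ID3 were called lower by DESeq2, against 5.47% of all genes, and the list median was -0.57. Both encode inhibitors of DNA binding, which block basic helix-loop-helix factors. ID2 was at 66.5, 73.2 and 101 FPKM in Control and at 44.2, 39.3 and 36.7 in rhChem157S (log2 fold change -0.87 ± 0.16, edgeR adjusted p = 0.0752, DESeq2 adjusted p = 1.11e-04). ID3 was at 143, 175 and 215 against 127, 95.7 and 99.8 FPKM (-0.60 ± 0.16, edgeR adjusted p = 0.117, DESeq2 adjusted p = 0.0166). The treated libraries were below the Control libraries for both genes.

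**Figure D5:**
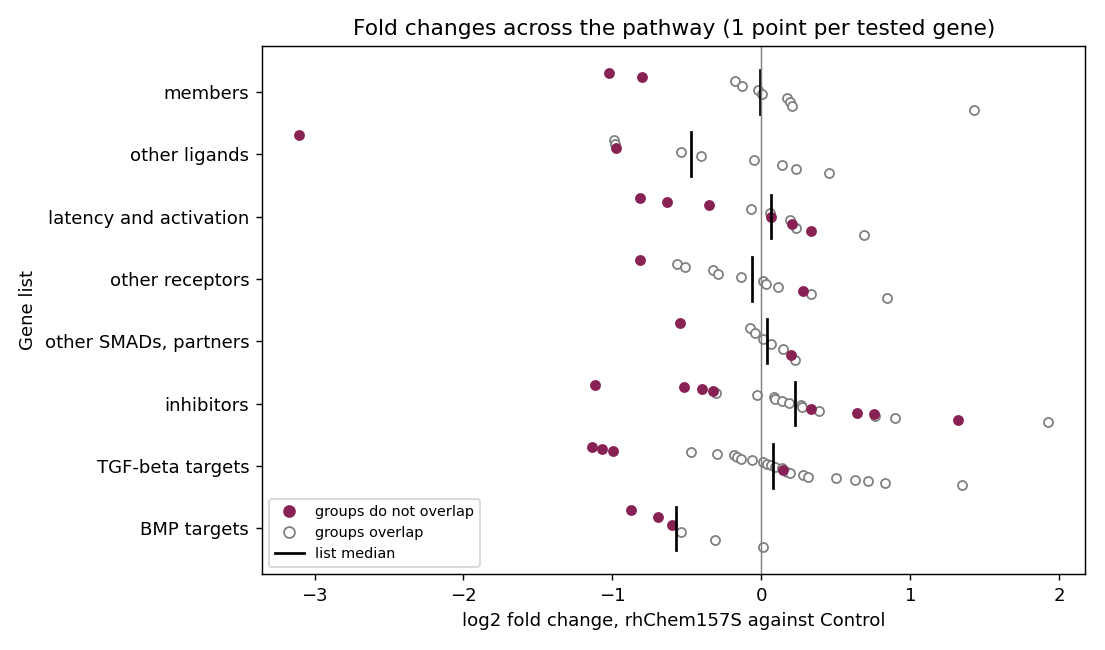
Log2 fold change, rhChem157S against Control, of each tested gene of the 10 members and the 7 other lists. Filled points have groups that do not overlap on the scale of normalized CPM, and black lines are list medians, which run from -0.57 for the BMP targets to 0.22 for the inhibitors.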

How the data were processed

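RNA-seq was performed on 12Z cells, 3 Control and 3 rhChem157S libraries, grouped by the labels. Per the study's methods, the authors trimmed reads with fastp, aligned them to GRCh38 with HISAT2, deposited counts per gene from HTSeq-count and deposited FPKM per gene. The strand setting and annotation release are not given in the sources used here. Reads in exon shared by overlapping genes can therefore be lost or assigned to either. From the deposited counts (35430881 to 38341643 per library), edgeR 4.0.16 was run in R 4.3.3 with TMM scaling, filterByExpr, the quasi-likelihood test and Benjamini-Hochberg adjustment over 13311 genes, at 0.05. CPM used a prior count of 2. Ratios were compared by two-sided exact permutation tests. Alternatives were DESeq2 1.42.0, 3 other scalings, 2 other filters, a replicate term, limma 3.58.1 on log2-transformed FPKM with a pseudocount of 1 or 0.1, and leaving out each library. Scripts were tested on simulated data. Named beyond the members were list genes with an adjusted p under 0.05 by edgeR or DESeq2, or else the 3 with the smallest p, marker genes by range, and the 5 genes most like the member with the smallest p. The members and lists were chosen with earlier results of these data known.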

Additional observations from a re-analysis of the deposited data

How the results depend on the processing

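TGFB2, TGFB3, INHBA and TGFBR1 kept their direction under all 15 alternatives, as did the 16 other named genes wherever they were fitted. The edgeR counts of genes called over the whole table were 4 with all libraries, 0 with upper-quartile factors, 17 with no filter and 1 with the replicate block, against 1319 by DESeq2, 179 by limma on log2(FPKM + 1) and 23 on log2(FPKM + 0.1). DESeq2 called 2 members. In simulated data with 200 of 13311 genes changed by a log2 of 2, edgeR recovered 182 with 10 false calls. DESeq2 recovered 180 with 30 false calls. The simulated libraries of a group shared the same means, with no library set apart. These counts therefore cannot tell whether a call in the real data is false. Leaving out 1 library gave 0 to 844 genes called and 0 to 2 members called. In these fits 1 to 6 members had an unadjusted p under 0.05, against 1666 to 4067 of 13450 to 13531 tested genes. Groups did not overlap in 2 to 6 members, against 36.9 to 49.8% of all tested genes. The 844 came without rhChem157S 1 and the 415 without rhChem157S 3, and without each of the other 4 libraries the count was 0. Why the tools differed was not tested. SMAD2, close to 0 throughout, was at -0.0033 with DESeq2 size factors, -0.041 with upper-quartile factors, -0.12 with library size only, -0.0089 with a minimum CPM of 1 in 3 libraries, -0.083 by limma on log2(FPKM + 1) and -0.12 on log2(FPKM + 0.1). TGFBR2 was at -0.0071 and -0.011 in these last fits. Leaving out 1 library gave -0.034 to 0.044 for SMAD2, -0.089 to 0.050 for SMAD4, -0.60 to 0.080 for SMAD7, -0.074 to 0.41 for TGFB1, -0.11 to 0.38 for TGFBR2, -0.057 to 0.40 for SMAD3 and -0.11 to 0.42 for the log2 ratio of SMAD3 to SMAD2. The TGFBR1 to TGFBR2 difference ran from -1.48 to -0.40. INHBA was at 0.43 and 0.68 by limma with the larger and the smaller pseudocount, FST at 0.60 with the larger one and at 0.85 without rhChem157S 3, and ITGAV at 0.19 to 0.20 in both limma fits and with library size only. Scaling by library size only moved the median of all genes to -0.12. Libraries share numbers across groups. Deviations of same-numbered libraries correlated at 0.241, 0.0015 and 0.247 across genes, and those of differently numbered libraries at -0.306 to 0.106. Numbers 1 and 3 thus gave the highest correlations, and whether same-numbered libraries were handled together is not given in the sources used here. No source calls the numbers pairs, so the main fit did not take them as pairs. With the replicate block no member was called, with INHBA at 0.91 and an edgeR adjusted p of 0.325, and the ratio of TGFB2 to TGFB1 had an exact p of 0.25, the smallest that 3 pairs allow.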

Other observations

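The order seen in 5 members, lowest of the 6 libraries in rhChem157S 1 and highest in rhChem157S 3 by normalized CPM, was also found in 15 of the 91 tested genes of the other pathway lists (16.5%, against 7.26% of all tested genes), and the opposite order in 3 (3.30%, against 5.64%). The genes in this paragraph were chosen after their values were seen. PMEPA1, a feedback inhibitor, was at 4.07, 4.34 and 4.67 FPKM in Control and at 1.94, 3.45 and 7.46 in rhChem157S. KLF10, an early TGF-beta response gene, was at 23.5, 22.9 and 24.7 against 14.8, 22.0 and 42.0 FPKM. In both genes the treated libraries spanned the Control libraries on both sides. The opposite order was seen in COL1A1, COL3A1 and COL4A1, all collagen genes of the target list. COL3A1 was at 736, 648 and 465 FPKM in Control and at 764, 499 and 271 in rhChem157S. The log2 fold changes between the groups were 0.14 ± 0.46 for PMEPA1, 0.31 ± 0.37 for KLF10 and -0.16 ± 0.33 for COL3A1, with edgeR adjusted p of 0.870, 0.630 and 0.786.

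The BMP antagonist GREM1 was counted 1805, 2020 and 3117 times in Control and 2529, 4779 and 16682 times in rhChem157S (log2 fold change 1.92 ± 0.68, edgeR adjusted p = 0.166). The ligand BMP4 was counted 1779, 1511 and 1623 times in Control and 1621, 576 and 232 times in rhChem157S (-0.99 ± 0.55, edgeR adjusted p = 0.316). In both genes the groups overlapped by normalized CPM, and rhChem157S 3 lay farthest from Control. Both were chosen after their values were seen.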
